A study of Mus musculus with 14 samples.

Results

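Interferon-stimulated genes outside the Ifit, Oas, guanylate-binding, immunity-related GTPase, PYHIN and Schlafen families were described in macrophages that had been grown in culture from mouse bone marrow. The 35 genes were listed by symbol and matched by Ensembl identifier to 35 of the 47937 genes in the table, and all 35 passed the filter on low counts that left 13061 genes tested. The genes had been chosen by measured values, namely how trap supernatant compared with mast cell supernatant, and each with untreated cells, within batches, so values and counts of calls in those contrasts are given as a description, and nothing is read from them as a test. The macrophages were of the WT genotype and were left untreated (6 libraries) or were given, for 3.5 h, mast cell supernatant (5 libraries) or the supernatant of mast cell intracellular traps, here called trap supernatant (3 libraries). The sources used here give no mouse strain or age, no number of animals, and neither the source of the mast cells nor the way the supernatants were made. By the series title, the experiment belongs to a study of how mast cells trap neutrophils and relay inflammation. Poly(A) RNA was sequenced, and the labels put each library in 1 of 3 batches: batch 1 and batch 3 each hold 2 untreated libraries, 2 with mast cell supernatant and 1 with trap supernatant, and batch 2 holds 2, 1 and 1. No group was given interferon, so the name of the gene set comes from what is known of these genes elsewhere.

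Type I interferons are cytokines released by infected or activated cells. They bind the IFNAR1 and IFNAR2 receptor chains, whose kinases JAK1 and TYK2 set off the assembly of the complex ISGF3, which contains STAT2 and IRF9 and binds interferon-stimulated response elements (ISREs) in promoters. Type II interferon works through another promoter element, named GAS. Macrophages keep many of the target genes at a basal level through low amounts of autocrine interferon and raise them within hours of a stimulus. The products tag proteins with the ubiquitin-like ISG15, block viral replication, add ADP-ribose to proteins, act in nuclear bodies or attract T cells.

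Promoters are shown for the genes with the most ISRE letters, because that element is the binding site by which interferon is known to act. RefSeq promoters of GRCm38.p6 were found for 27 of the 35 genes (33 promoters), reaching from 250 bases before the start of transcription to 50 after it. Each is printed here up to 30 bases after the start, 280 bases in all. Capitals mark the ISRE core, which is GAAA, any 2 bases and GAAA again, on either strand, and runs of capitals can hold overlapping matches: 3 in Isg15, 2 in Bst2, 2 in Trim21, 2 in Ddx60, and 1 each in Rsad2 and Cxcl10, the latter pair added after their values were seen. Lgals3bp is the most abundant gene of the set without a match.
Isg15, chr4:156200789-156201068, minus strand: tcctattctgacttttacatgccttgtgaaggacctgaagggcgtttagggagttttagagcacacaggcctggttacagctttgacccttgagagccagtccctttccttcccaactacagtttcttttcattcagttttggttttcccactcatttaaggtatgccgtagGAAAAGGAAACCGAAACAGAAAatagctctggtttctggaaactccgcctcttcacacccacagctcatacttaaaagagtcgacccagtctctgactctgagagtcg
Bst2, chr8:71537443-71537722, minus strand: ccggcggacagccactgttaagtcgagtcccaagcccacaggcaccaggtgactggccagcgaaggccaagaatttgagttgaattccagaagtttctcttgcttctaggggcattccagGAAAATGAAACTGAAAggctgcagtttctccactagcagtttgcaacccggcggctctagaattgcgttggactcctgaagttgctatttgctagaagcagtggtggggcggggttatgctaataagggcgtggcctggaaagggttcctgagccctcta
Trim21, chr7:102565453-102565732, minus strand: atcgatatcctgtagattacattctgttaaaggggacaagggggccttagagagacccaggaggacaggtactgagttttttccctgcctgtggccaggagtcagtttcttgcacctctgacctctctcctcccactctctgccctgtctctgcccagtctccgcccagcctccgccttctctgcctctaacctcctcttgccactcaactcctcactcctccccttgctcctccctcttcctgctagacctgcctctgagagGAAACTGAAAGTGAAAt
Ddx60, chr8:61927837-61928116, plus strand: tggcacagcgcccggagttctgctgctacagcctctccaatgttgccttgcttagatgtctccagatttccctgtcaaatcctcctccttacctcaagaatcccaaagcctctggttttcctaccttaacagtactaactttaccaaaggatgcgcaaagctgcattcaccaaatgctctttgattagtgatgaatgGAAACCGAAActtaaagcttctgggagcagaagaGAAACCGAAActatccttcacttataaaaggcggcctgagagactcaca
Rsad2, chr12:26456423-26456702, minus strand: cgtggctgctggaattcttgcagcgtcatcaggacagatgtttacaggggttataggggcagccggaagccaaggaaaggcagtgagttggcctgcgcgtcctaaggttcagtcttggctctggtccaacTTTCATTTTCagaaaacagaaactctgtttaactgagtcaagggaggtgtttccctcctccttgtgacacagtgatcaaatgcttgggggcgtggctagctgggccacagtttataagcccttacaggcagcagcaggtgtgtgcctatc
Cxcl10, chr5:92348860-92349139, minus strand: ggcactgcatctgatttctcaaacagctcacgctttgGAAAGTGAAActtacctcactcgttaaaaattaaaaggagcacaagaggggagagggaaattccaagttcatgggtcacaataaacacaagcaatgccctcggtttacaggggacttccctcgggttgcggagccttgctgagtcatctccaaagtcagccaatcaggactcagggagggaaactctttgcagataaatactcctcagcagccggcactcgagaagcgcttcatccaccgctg
Lgals3bp, chr11:118401930-118402209, minus strand: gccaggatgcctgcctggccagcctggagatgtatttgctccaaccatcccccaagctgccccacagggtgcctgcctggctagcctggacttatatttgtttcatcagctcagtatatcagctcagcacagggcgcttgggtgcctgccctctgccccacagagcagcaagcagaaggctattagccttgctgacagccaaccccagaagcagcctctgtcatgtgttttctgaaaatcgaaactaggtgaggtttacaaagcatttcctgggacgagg

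These letters stood in a promoter of 9 of the 27 genes (33.3%): Bst2, Cxcl10, Ddx60, Eif2ak2, Isg15, Ogfr, Rsad2, Trim21 and Trim30a. Among all 27025 genes of the promoter table the share was 3.99%, and among all 32851 promoters 3.443%. The shorter GAAANNGAA, which every such match also holds, was found for 13 of the 27 genes (48.1%, against 9.76% of all genes). GAS letters, TTCNNNGAA, were found for 4 of the 27 (14.8%, against 9.55%), and kappaB letters (GGG, any 5 bases, CC) for 20 (74.1%, against 53.5%). A match is a description of letters, not of binding, and its absence says only that the letters are not in that window.

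The untreated libraries held between 13455686 and 22720419 counts, those of mast cell supernatant between 11729073 and 16123421, and those of trap supernatant between 12414738 and 16491536. Levels below are counts per 1000000 counts of the library (CPM) scaled by TMM, a correction for library composition. The summed level of 8 macrophage markers ranged between 6889 and 16470 CPM untreated, 6862 and 17730 for mast cell supernatant, and 6710 and 16630 for trap supernatant. Lyz2, a gene of that list that encodes lysozyme, had 1 to 2 counts (at most 0.170 CPM) in all 5 libraries of batch 3, in each group, against 4715 to 10880 CPM in the 9 others. The labels give all 14 libraries the same WT genotype, and Adgre1, which encodes the macrophage antigen F4/80, stood at 1662 to 2245 CPM throughout. Values are therefore given by batch, and pooled ones also without batch 3. Mertk, another macrophage marker, was called lower with both supernatants. The summed level of 11 mast cell markers was 5.80 to 9.05 CPM in untreated libraries, where Mcpt4, Tpsb2 and Tpsab1 were at 0. It was 81.8 to 1381 CPM with mast cell supernatant and 83.6, 743 and 1975 CPM with trap supernatant in batches 1, 2 and 3. Of these 11 markers, 9 were called higher with mast cell supernatant (2.17% of all genes) and 7 with trap supernatant (0.919%). Markers of plasmacytoid dendritic cells, a source of interferon, summed to 1.43 to 3.35 CPM over all libraries, with Klk1 at 0 in each group. Siglech of that list had 0 counts in the 4 libraries of batch 2 and 0 to 13 in the others. In bulk RNA, fewer cells of a type and less RNA per cell cannot be told apart. The labels do not tell separate animals or cultures from repeat libraries, and the spread behind each p-value may therefore be technical.

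Basal levels spanned a wide range. In reads per kilobase of exon and 1000000 counts (RPKM) over the 6 untreated libraries, the order was led by Lgals3bp, a secreted glycoprotein that binds galectin-3, at 262, and Bst2 (tetherin), which holds budding virus at the cell surface, at 142.5. Trim25 (52.0), Ifi27 (46.1), Ogfr (37.3), Isg15 (36.9) and Parp14 (29.4) came next, and their untreated ranges overlapped in part: Isg15 alone ran from 24.8 to 63.7 RPKM. The lowest were Mx2 (2.59), Herc6 (1.74), Ddx60 (0.871), Ifi44 (0.53) and the chemokine gene Cxcl9 (0.185). Cxcl9 had 119 counts over the 14 libraries, so its values carry a large counting error.

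Within batches, most of the 35 genes shared a direction, which differed from batch to batch. With trap supernatant all 35 had a higher mean log2 CPM than untreated cells in batch 1 (median difference 0.77) and 32 did in batch 2 (0.32), but only 3 did in batch 3 (-0.29). With mast cell supernatant 29 were higher than untreated in batch 1 (0.22), 5 in batch 2 (-0.36) and 2 in batch 3 (-0.60). Trap supernatant set against mast cell supernatant gave positive values for 33, 34 and 27 of the 35 in batches 1, 2 and 3, with medians of 0.53, 0.71 and 0.30. Medians over all 13061 genes tested lay between -0.01 and 0.01 in each of these 9 settings. The 3 comparisons share libraries, and each batch holds 1 trap library, so none of the trap values within a batch has a replicate.

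**Figure D1:**
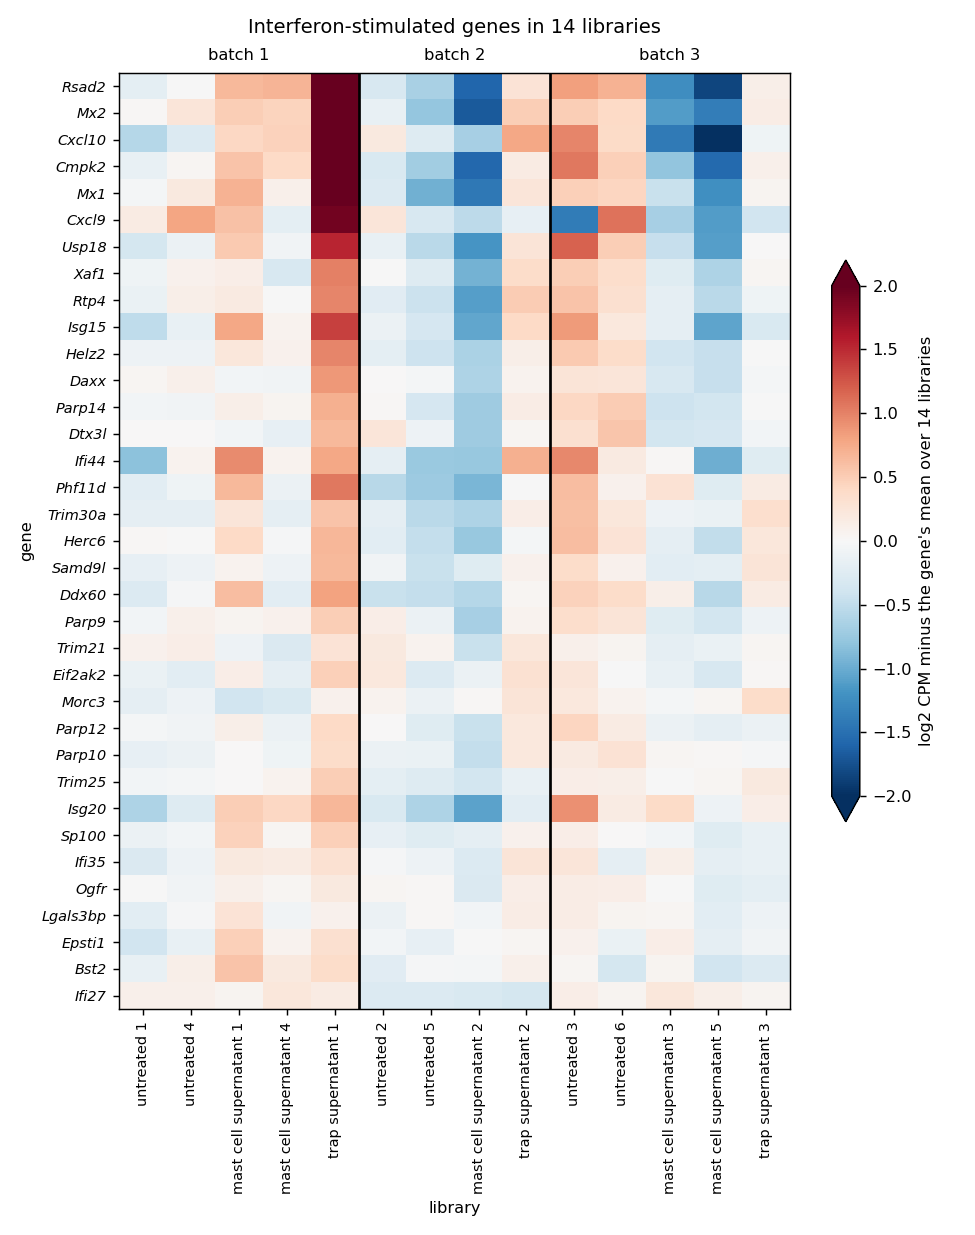
Each of the 35 genes (rows) in each of the 14 libraries (columns, by batch): colour is log2 CPM minus the gene's mean over the 14 libraries, and the scale ends at -2 and 2. Trap supernatant replicate 1 is the reddest column, with the highest value of 26 of the 35 genes, and mast cell supernatant replicate 2 is blue, with the lowest value of 21.

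Single libraries stood out. Trap supernatant replicate 1, from batch 1, held the highest value of 26 of the 35 genes, where 5.18% of all genes tested had theirs. Mast cell supernatant replicate 2, the only such library of batch 2, held the lowest value of 21 (9.34% of all genes), and mast cell supernatant replicate 5 of batch 3 the lowest of 6 (5.77%). Untreated replicate 3 held the highest value of Ifi44, Isg20, Parp12 and Trim30a. Libraries of the same group and batch also differed in one direction across the set: untreated replicate 2 exceeded replicate 5 for 32 of the 35 genes and untreated replicate 3 exceeded replicate 6 for 31, where 48.3% and 49.8% of all genes did. Mast cell supernatant replicates 1 and 3 exceeded replicates 4 and 5 for 29 genes each (48.8% and 49.5% of all genes). Untreated replicate 1 of batch 1 was instead below replicate 4 for 27 of the 35 genes (49.3% of all genes). The median absolute size of these differences between libraries of a group and batch was 0.16 to 0.27 on the log2 scale. The within-batch medians between groups, without their sign, ran from 0.22 to 0.77. The latter are medians of signed differences between means, so the 2 measures are not alike.

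**Figure D2:**
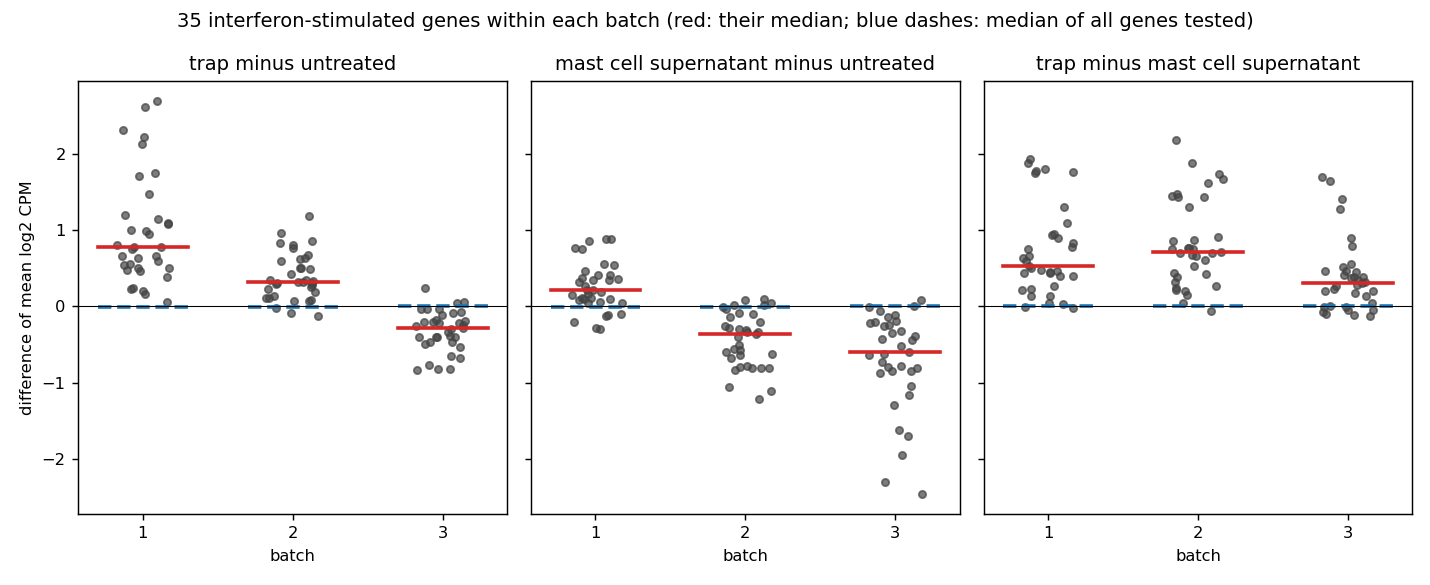
Difference of mean log2 CPM within each batch (vertical axis) for the 35 genes (points), for trap minus untreated, mast cell supernatant minus untreated and trap minus mast cell supernatant; red bars are medians of the 35 genes and blue dashes medians of all genes tested. The red bars fall from 0.77 to -0.29 over batches 1 to 3 in the first panel and from 0.22 to -0.60 in the second, and lie at 0.53, 0.71 and 0.30 in the third.

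Counts of genes whose libraries did not overlap within a batch are set beside the share of all genes for which this held. Trap supernatant lay above every untreated library for 35 genes in batch 1 (39.1% of all genes), 31 in batch 2 (34.0%) and 2 in batch 3 (33.7%), the latter being Trim25 and Morc3. It lay below both untreated libraries of batch 3 for 24 genes (34.7%). Mast cell supernatant lay below untreated for 4 genes of the 35 in batch 1 (30.6%), for 28 of them in batch 2 (39.1%) and for 28 in batch 3 (25.5%). It did so in every batch for Daxx, Dtx3l and Trim21 (3 genes, 4.63% of all). Trap supernatant lay above mast cell supernatant for 30 genes in batch 1 (33.3%), for 34 of them in batch 2 (50.3%) and for 23 in batch 3 (37.5%). The same 23 genes did so in all 3 batches (5.93% of all genes). The 12 others were Bst2, Epsti1, Ifi27, Ifi35, Ifi44, Isg15, Isg20, Lgals3bp, Ogfr, Parp10, Phf11d and Sp100.

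The ISG15 system comprises Isg15, whose product is conjugated to other proteins, Herc6, a mouse ligase for it, Usp18, the protease that removes it and that also restrains the type I receptor, and Trim25, a ubiquitin ligase of the RIG-I pathway. All 4 were higher with trap than with mast cell supernatant in each batch by mean log2 CPM, with medians of 0.71, 1.07 and 0.44. Isg15 (ENSMUSG00000035692, chr4:156199424-156200818, minus strand) had group means of 27.9 ± 10.7 CPM untreated (SD, n = 6), 24.5 ± 13.6 with mast cell supernatant (n = 5) and 41.9 ± 24.5 with trap supernatant (n = 3). In batch 1 Isg15 stood at 18.8 and 23.9 CPM in untreated libraries, 45.7 and 27.9 with mast cell supernatant and 69.1 with trap supernatant. Batch 2 gave Isg15 values of 24.5 and 21.1 untreated, 12.9 with mast cell supernatant and 34.98 with trap supernatant. For Isg15 in batch 3 the values were 48.2 and 30.9, 23.4 and 12.8 and 21.6 in the same order. The trap library was highest in batches 1 and 2, while in batch 3 it lay between the mast cell supernatant libraries and below both untreated ones. Trim25 (ENSMUSG00000000275, chr11:88999376-89020293, plus strand) was more even. In batch 1 Trim25 stood at 295 and 299.9 CPM in untreated libraries, 308 and 324 with mast cell supernatant and 433 with trap supernatant. Batch 2 gave Trim25 values of 269 and 257 untreated, 239 with mast cell supernatant and 277 with trap supernatant. For Trim25 in batch 3 the values were 338 and 335, 307 and 316 and 351 in the same order. Trap supernatant gave Trim25 its highest level within each batch, by 1.37-fold, 1.16-fold and 1.13-fold over the mean of mast cell supernatant. Usp18 ranged from 6.45 to 42.3 CPM, with trap minus mast cell supernatant at 1.29, 1.43 and 0.79 on the log2 scale in batches 1, 2 and 3. Herc6 ranged from 9.08 to 24.4 CPM, with 0.47, 0.71 and 0.56.

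Among the 14 antiviral effectors and RNA sensors, the widest differences between trap and mast cell supernatant in each batch were those of Rsad2, Cmpk2, Mx1 and Mx2. Rsad2 encodes viperin, an enzyme that makes a chain-terminating nucleotide, and Cmpk2, its neighbour, supplies the precursor. Rsad2 (ENSMUSG00000020641, chr12:26442746-26456452, minus strand) had group means of 96.6 ± 40.5 CPM untreated (n = 6), 72.7 ± 58.9 with mast cell supernatant (n = 5) and 239.9 ± 244 with trap supernatant (n = 3). In batch 1 Rsad2 stood at 75.3 and 86.4 CPM in untreated libraries, 136 and 138 with mast cell supernatant and 521 with trap supernatant. Batch 2 gave Rsad2 values of 69.1 and 54.9 untreated, 28.6 with mast cell supernatant and 105 with trap supernatant. For Rsad2 in batch 3 the values were 153 and 140.3, 36.7 and 24.2 and 93.3 in the same order. The single trap library of each batch stood 3.80-fold, 3.67-fold and 3.07-fold above the mean of mast cell supernatant. Against untreated cells the ratio was 6.45, 1.69 and 0.635, so the batch 3 trap library was below its untreated controls. Cmpk2 begins 12752 bases from Rsad2 on the opposite strand, with no gene coding for a protein between them, and had trap minus mast cell supernatant differences of 1.77, 1.73 and 1.28.

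The Mx genes encode dynamin-like GTPases that block viral nucleocapsids, Mx1 in the nucleus and Mx2 in the cytoplasm. Mx1 (ENSMUSG00000000386, chr16:97447035-97462907, minus strand) gave the following values. In batch 1 Mx1 stood at 33.6 and 39.6 CPM in untreated libraries, 56.0 and 37.2 with mast cell supernatant and 159 with trap supernatant. Batch 2 gave Mx1 values of 28.6 and 17.8 untreated, 12.9 with mast cell supernatant and 40.9 with trap supernatant. For Mx1 in batch 3 the values were 48.5 and 46.8, 25.6 and 14.7 and 36.2 in the same order. The order trap, untreated, mast cell supernatant held in batch 2, and untreated, trap, mast cell supernatant in batch 3. Mx2 (ENSMUSG00000023341, chr16:97535308-97560900, plus strand), listed as a polymorphic pseudogene in GENCODE release 21, was lower throughout. In batch 1 Mx2 stood at 8.93 and 10.4 CPM in untreated libraries, 12.4 and 11.99 with mast cell supernatant and 44.8 with trap supernatant. Batch 2 gave Mx2 values of 7.89 and 5.07 untreated, 2.68 with mast cell supernatant and 12.4 with trap supernatant. For Mx2 in batch 3 the values were 12.3 and 11.6, 3.99 and 3.31 and 9.75 in the same order. Its trap library lay above the mast cell supernatant libraries in every batch, by 3.67-fold, 4.60-fold and 2.67-fold. The Mx genes lie 72401 bases apart on chromosome 16 with 1 protein-coding gene between them.

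Other antiviral genes differed less. Bst2 (ENSMUSG00000046718, chr8:71534255-71537456, minus strand) had 129 ± 15.4 CPM untreated (n = 6), 148 ± 36.5 with mast cell supernatant (n = 5) and 146 ± 31.5 with trap supernatant (n = 3). In batch 1 Bst2 stood at 123 and 148 CPM in untreated libraries, 204 and 157 with mast cell supernatant and 177 with trap supernatant. Batch 2 gave Bst2 values of 118 and 134 untreated, 133 with mast cell supernatant and 147 with trap supernatant. For Bst2 in batch 3 the values were 142 and 107, 142 and 105 and 114 in the same order. The trap library lay between the mast cell supernatant libraries in batches 1 and 3, and the groups overlapped in batch 3. Ifi27 (ENSMUSG00000064215, chr12:103434211-103440239, plus strand), a mitochondrial and nuclear-membrane protein gene of a family with close paralogs, was the only gene of the set with a negative pooled difference between trap supernatant and untreated. In batch 1 Ifi27 stood at 73.4 and 73.0 CPM in untreated libraries, 70.8 and 79.9 with mast cell supernatant and 76.5 with trap supernatant. Batch 2 gave Ifi27 values of 56.7 and 56.9 untreated, 55.6 with mast cell supernatant and 53.4 with trap supernatant. For Ifi27 in batch 3 the values were 75.1 and 70.7, 79.9 and 74.0 and 70.9 in the same order. Its libraries differed between batches more than between groups, with batch 2 lowest. Ifi27 and its near copies share sequence, as do Trim30a, Sp100 and Phf11d with theirs, so reads may have been split between copies and these values are uncertain. Eif2ak2 (PKR, the kinase that stops translation on double-stranded RNA), Ddx60, a helicase linked to RIG-I signalling, Rtp4, which binds viral RNA, and Samd9l, a restriction factor of poxviruses, had trap minus mast cell supernatant differences of 0.50, 0.43 and 0.27, 0.59, 0.61 and 0.38, 0.89, 1.61 and 0.28 and 0.66, 0.32 and 0.46. For Trim30a, a regulator of Toll-like receptor signalling, they were 0.53, 0.75 and 0.45. Isg20, an exonuclease for RNA, and Ifi44 varied between libraries of a group: the untreated libraries of batch 1 alone differed by 0.88 on the log2 scale for Ifi44.

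**Figure D3:**
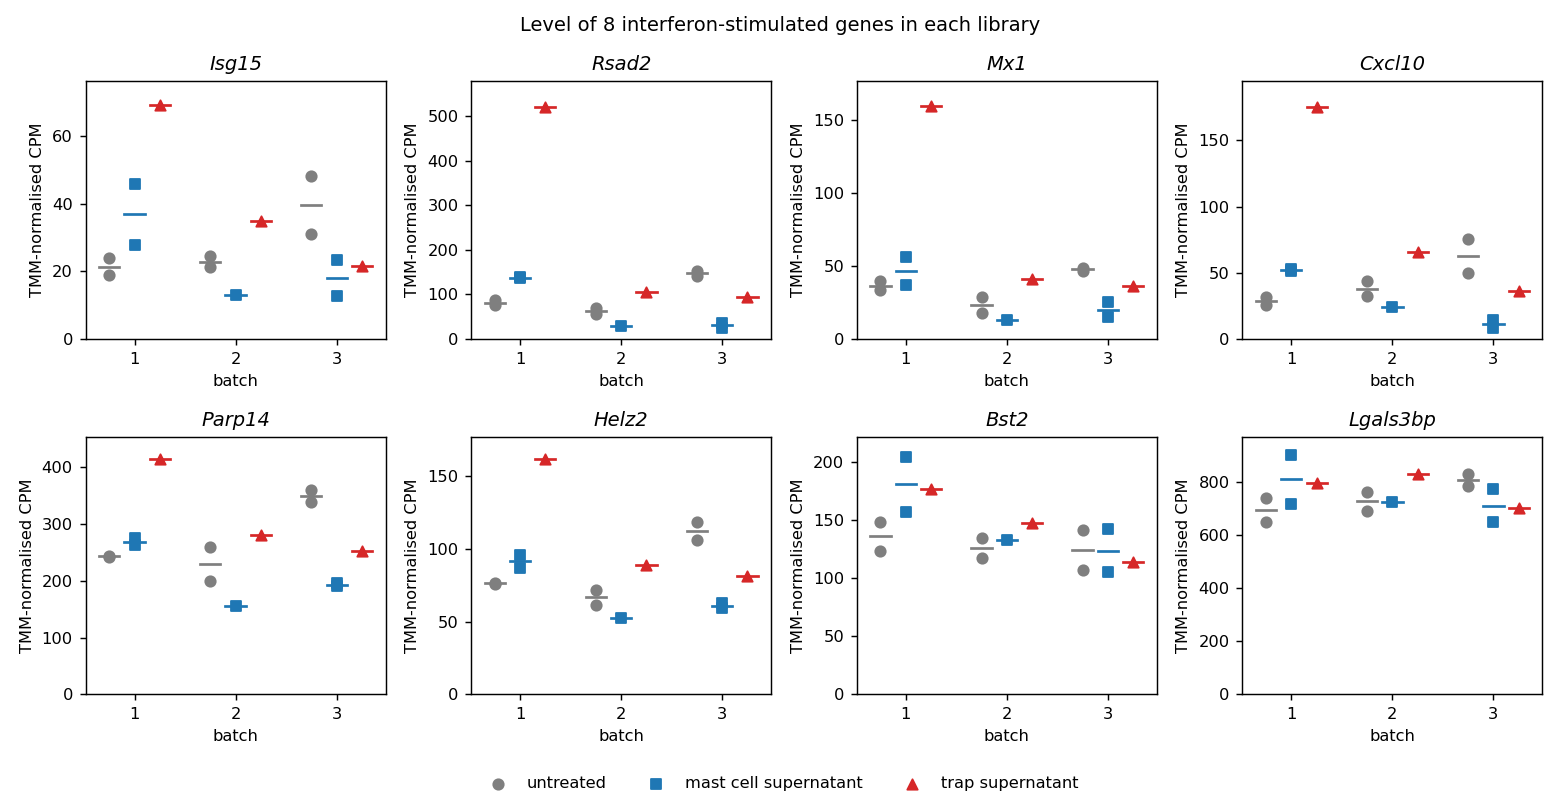
TMM-normalised CPM (vertical axis, linear, from 0) of 8 of the genes in each library by batch; circles are untreated, squares mast cell supernatant and triangles trap supernatant, and bars are the mean of a group within a batch. For Rsad2 the batch 1 trap library stands at 521 CPM and every other library at or below 153, while for Lgals3bp the groups overlap between 650.4 and 905 CPM.

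Trim21 encodes a cytosolic antibody receptor and ubiquitin ligase, and its values are given because the pooled counts below include it (chosen after its values were seen, in a contrast that also chose the genes). In batch 1 Trim21 stood at 20.7 and 21.5 CPM in untreated libraries, 18.2 and 16.1 with mast cell supernatant and 23.7 with trap supernatant. Batch 2 gave Trim21 values of 22.4 and 20.5 untreated, 14.4 with mast cell supernatant and 23.0 with trap supernatant. For Trim21 in batch 3 the values were 21.1 and 20.5, 17.2 and 17.8 and 20.2 in the same order. Mast cell supernatant gave lower values than untreated in every batch, at 0.812, 0.671 and 0.844 times the untreated mean, and the trap library exceeded the mast cell supernatant libraries in each.

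PARP enzymes attach ADP-ribose to proteins, and DTX3L is a ubiquitin ligase that works as a pair with PARP9. Parp14 (ENSMUSG00000034422, chr16:35832874-35871544, minus strand) is the most abundant of these 5 genes by CPM. In batch 1 Parp14 stood at 243 and 242 CPM in untreated libraries, 274 and 263 with mast cell supernatant and 415 with trap supernatant. Batch 2 gave Parp14 values of 259 and 200.0 untreated, 155 with mast cell supernatant and 280.1 with trap supernatant. For Parp14 in batch 3 the values were 339 and 359, 190.1 and 196 and 252 in the same order. Mast cell supernatant gave the lowest values of batches 2 and 3, where the ratio to untreated was 0.675 and 0.554. Dtx3l (ENSMUSG00000049502, chr16:35926511-35939151, minus strand) was the gene of this group with the lowest pooled value for mast cell supernatant against untreated, -0.55 ± 0.15 (SE). In batch 1 Dtx3l stood at 68.0 and 68.5 CPM in untreated libraries, 65.1 and 60.5 with mast cell supernatant and 106 with trap supernatant. Batch 2 gave Dtx3l values of 80.1 and 63.5 untreated, 41.2 with mast cell supernatant and 69.9 with trap supernatant. For Dtx3l in batch 3 the values were 84.3 and 99.5, 52.4 and 53.5 and 65.2 in the same order. Every mast cell supernatant library lay below the untreated libraries of its batch. Parp9 had trap minus mast cell supernatant differences of 0.43, 0.74 and 0.20, Parp12 of 0.40, 0.65 and 0.04 and Parp10 of 0.40, 0.70 and -0.05. Dtx3l and Parp9 overlap on opposite strands with 458 shared exon bases and lie beside Parp14, 54967 bases from Dtx3l. The sources used here do not state the strand setting of the counting, so reads of the overlap cannot be assigned with certainty. Parp10 shares 205 exon bases with Plec, which had 315715 counts, on the same strand, so those reads are uncertain under any strand setting.

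Among the 5 genes of nuclear bodies and chromatin, Sp100 is a scaffold of PML bodies, Daxx a histone chaperone that works there, Morc3 an ATPase of the same bodies, Helz2 a helicase that coactivates nuclear receptors, and Phf11d a PHD-finger protein gene. Sp100 (ENSMUSG00000026222, chr1:85649988-85709998, plus strand) differed little. In batch 1 Sp100 stood at 86.0 and 90.6 CPM in untreated libraries, 129 and 96.4 with mast cell supernatant and 130.2 with trap supernatant. Batch 2 gave Sp100 values of 83.9 and 78.9 untreated, 82.6 with mast cell supernatant and 99.6 with trap supernatant. For Sp100 in batch 3 the values were 103 and 93.9, 89.8 and 79.6 and 85.0 in the same order. The trap library was highest in batch 2, was level with mast cell supernatant replicate 1 in batch 1 and lay between the mast cell supernatant libraries in batch 3. Helz2 (ENSMUSG00000027580, chr2:181227615-181242027, minus strand) differed more. In batch 1 Helz2 stood at 76.6 and 76.2 CPM in untreated libraries, 96.1 and 87.0 with mast cell supernatant and 162 with trap supernatant. Batch 2 gave Helz2 values of 71.8 and 61.7 untreated, 52.7 with mast cell supernatant and 89.4 with trap supernatant. For Helz2 in batch 3 the values were 119 and 107, 62.8 and 59.6 and 81.3 in the same order. Its trap library exceeded mast cell supernatant by 1.77-fold, 1.70-fold and 1.33-fold. Daxx had trap minus mast cell supernatant differences of 0.93, 0.69 and 0.35 and mast cell supernatant minus untreated differences of -0.13, -0.60 and -0.64. Morc3 alone had trap values above untreated of nearly one size in each batch, 0.23, 0.28 and 0.23, on untreated levels of 49.0 to 63.9 CPM. Phf11d had trap minus mast cell supernatant differences of 0.78, 0.91 and 0.14.

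Cxcl9 and Cxcl10 encode chemokines for the receptor CXCR3 of activated T and NK cells and lie 18559 bases apart on chromosome 5. Cxcl10 (ENSMUSG00000034855, chr5:92346638-92348889, minus strand) had group means of 43.2 ± 18.2 CPM untreated (n = 6), 30.2 ± 20.6 with mast cell supernatant (n = 5) and 92.3 ± 73.4 with trap supernatant (n = 3). In batch 1 Cxcl10 stood at 25.9 and 31.5 CPM in untreated libraries, 51.3 and 52.6 with mast cell supernatant and 175 with trap supernatant. Batch 2 gave Cxcl10 values of 44.0 and 32.1 untreated, 24.0 with mast cell supernatant and 65.4 with trap supernatant. For Cxcl10 in batch 3 the values were 75.6 and 49.9, 14.4 and 8.61 and 36.2 in the same order. The mast cell supernatant libraries of batch 3 were the lowest of all 14, at 0.183 times the untreated mean, and the trap library stood 3.15-fold above them. Cxcl9 (ENSMUSG00000029417, chr5:92321347-92328079, minus strand) was barely detected. In batch 1 Cxcl9 stood at 0.505 and 0.815 CPM in untreated libraries, 0.701 and 0.378 with mast cell supernatant and 1.89 with trap supernatant. Batch 2 gave Cxcl9 values of 0.540 and 0.343 untreated, 0.286 with mast cell supernatant and 0.391 with trap supernatant. For Cxcl9 in batch 3 the values were 0.123 and 1.02, 0.255 and 0.166 and 0.322 in the same order. These rest on 2 to 25 counts per library, and the untreated libraries of batch 3 alone, with 2 and 17 counts, span most of the range.

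Of the 5 genes with other roles, Lgals3bp and Ogfr varied least. Lgals3bp (ENSMUSG00000033880, chr11:118392751-118402092, minus strand) had 745 ± 65.4 CPM untreated (n = 6), 755 ± 94.9 with mast cell supernatant (n = 5) and 778 ± 66.3 with trap supernatant (n = 3). In batch 1 Lgals3bp stood at 650.4 and 741 CPM in untreated libraries, 905 and 718 with mast cell supernatant and 799.5 with trap supernatant. Batch 2 gave Lgals3bp values of 694 and 766 untreated, 726 with mast cell supernatant and 830.4 with trap supernatant. For Lgals3bp in batch 3 the values were 833 and 785, 774 and 651 and 703 in the same order. Mast cell supernatant replicate 1 was the highest library and the groups overlapped over the 14 libraries. Ogfr (ENSMUSG00000049401, chr2:180589245-180595836, plus strand), the receptor gene of opioid growth factor, gave these values. In batch 1 Ogfr stood at 92.9 and 89.2 CPM in untreated libraries, 100.7 and 96.1 with mast cell supernatant and 108 with trap supernatant. Batch 2 gave Ogfr values of 95.7 and 94.6 untreated, 76.5 with mast cell supernatant and 103 with trap supernatant. For Ogfr in batch 3 the values were 103 and 103, 93.4 and 78.7 and 81.5 in the same order. Its values fell within 76.5 to 107.5 CPM in all libraries. Xaf1, an antagonist of the apoptosis inhibitor XIAP, differed more, with trap minus mast cell supernatant at 1.09, 1.31 and 0.47. Ifi35 had 0.13, 0.52 and -0.12 and Epsti1 0.04, 0.05 and -0.04.

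Pooled over batches with batch as a term, 0 of the 35 genes were called between trap supernatant and untreated (edgeR's quasi-likelihood test, Benjamini-Hochberg adjusted over all genes, false discovery rate 0.05), where 1.72% of all genes tested were called. Of the 35, 6 were higher (6.22% of all genes) and 0 lower (6.53%) at an unadjusted p under 0.05, DESeq2 called 1 (Morc3) and limma-voom 0. The pooled log2 difference was positive for 34 with a median of 0.30 (all genes -0.01), and the median was 0.06 without batch 1 and 0.53 without batch 3. Between mast cell supernatant and untreated 1 gene was called, Trim21, lower by log2 -0.34 ± 0.08 (SE), where 4.79% of all genes were called. At an unadjusted p under 0.05, 6 were lower (10.4% of all genes) and 0 higher (8.8%), and DESeq2 called 4 lower and limma-voom 1. The pooled difference was negative for 28 of the 35 with a median of -0.22 (all genes -0.01), which was -0.01 without batch 3. Trim21 was not called without mast cell supernatant replicate 2, without batch 1, without batch 2, with no batch term, with libraries of a group and batch summed, or with replicates 1 to 3 alone (9 libraries) and the replicate number as a block, where its value was -0.37. Between trap and mast cell supernatant edgeR called 0 of the 35 and 0.0% of all genes, with 22 of the 35 higher (2.46% of all genes) and 0 lower (1.9%) at an unadjusted p under 0.05. DESeq2 called 4 (Daxx, Morc3, Mx2 and Xaf1) and limma-voom 0, and the median pooled difference was 0.55 (all genes 0.00), with 32 positive. That median was 0.51 without batch 1, 0.47 without batch 2 and 0.54 without batch 3. DESeq2's counts over all genes for both comparisons with trap supernatant stand in the closing section on processing. Its count for mast cell supernatant against untreated, and those of limma-voom, are not given. The numbers of the 35 called in those fits therefore have no share beside them. These contrasts chose the genes, and nothing is read from the counts.

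Untreated macrophages also differed between batches, by a fit to the 6 untreated libraries. These libraries are a side of the contrasts that chose the genes, so the counts are not independent of the choice and are a description too. In batch 2, edgeR called 14 of the 35 genes lower than the mean of batches 1 and 3 and 0 higher. Of all 13045 genes tested, 16.7% were called lower and 16.7% higher. At an unadjusted p under 0.05, 19 of the 35 were lower (21.6% of all genes) and 0 higher (22.5%). The 14 called were Cmpk2, Ddx60, Helz2, Herc6, Ifi27, Mx1, Mx2, Parp14, Phf11d, Rsad2, Rtp4, Trim25, Trim30a and Xaf1. A call against this mean does not place batch 2 below each batch. Parp14 had 259 and 200.0 CPM in untreated libraries of batch 2 and 243 and 242 in those of batch 1. Rsad2 differed by log2 -0.80 ± 0.10 (SE) by edgeR, from 54.9 and 69.1 CPM in batch 2 against 75.3 to 153 CPM in the other batches, so the batches did not overlap. Mx1 differed by -0.84 ± 0.17 (SE), Helz2 by -0.46 ± 0.08 (SE) and Ifi27 by -0.35 ± 0.07 (SE). Bst2 and Lgals3bp had -0.03 ± 0.13 (SE) and -0.03 ± 0.07 (SE). The median over the 35 genes was -0.33 and over all genes 0.01. DESeq2 and limma-voom each called 14 lower and 0 higher, but their counts over all genes are not given, so no share stands beside these numbers. Without untreated replicate 5, whose values were below those of replicate 2 for 32 genes, 4 of the 35 were called, and with other single libraries left out 13 to 21. The number called over all genes ran from 1989 to 6360 in these fits. With batch 3 left out, an alternative added after the data were seen, 9 of the 14 were called against batch 1 alone and the median of the 35 was -0.11.

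Batch 3 exceeded batch 1 in 12 of the 35 genes with 0 lower, where 4.84% of all genes were called higher and 5.87% lower: Cxcl10, Ddx60, Dtx3l, Helz2, Isg15, Isg20, Parp10, Parp14, Rsad2, Rtp4, Trim30a and Usp18. Rsad2 was higher by log2 0.85 ± 0.11 (SE) by edgeR, at 140 and 153 CPM against 75.3 and 86.4. Cxcl10 was higher by 1.11 ± 0.24 (SE), Isg15 by 0.87 ± 0.22 (SE) and Parp14 by 0.51 ± 0.10 (SE). The median was 0.36, and over all genes 0.00. DESeq2 called 11 of 34 with an adjusted p and limma-voom 12, both with 0 lower. DESeq2's count over all genes stands in the closing section on processing, and that of limma-voom is not given. At an unadjusted p under 0.05 edgeR gave 25 higher (12.2% of all genes) and 0 lower (13.5%). The number called of the 35 depended on single libraries: it was 2 without untreated replicate 1, 1 without replicate 4, 7 without replicate 5 and 25 without replicate 6. The number called over all genes moved too, from 332 to 3833 with 1 untreated library left out, so the change is not particular to the 35. In a fit of all 14 libraries, treated ones included, 2 of the 35 were called, the median was -0.10, and 9 of the 12 genes had the opposite sign, such as Rsad2 at -1.06. Libraries of 1 batch may be technical replicates, so n counts libraries. Other groups of genes moved with these batches. In batch 3 against batch 1, 5 of 15 NF-kB inflammatory genes and 8 of 8 neutrophil markers tested were higher and 0 of either lower. The 10 neutrophil markers summed to 128 to 129 CPM in batch 1, 92.6 to 110.1 in batch 2 and 315 to 325 in batch 3. In batch 2 against the mean of the others, 7 of 8 neutrophil markers and 6 of 8 macrophage markers were lower. Siglech was lower too, and 1 macrophage marker (Lyz2, nearly without counts in batch 3) was higher. So were 3 of 3 fibroblast markers tested. All 5 fibroblast markers listed summed to 139 to 144.5 CPM in untreated libraries of batch 2, against 8.43 to 16.7 in those of the other batches. Of 15 NF-kB inflammatory genes, 4 were higher and 4 lower in batch 2, and of 10 housekeeping genes 3 were higher and 1 lower. In batch 3 against batch 1, 2 macrophage markers (Itgam and Lyz2) were lower and 1 (Adgre1) higher, and 4 of 10 housekeeping genes were lower and 0 higher. The part of these groups in the result was not tested.

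**Figure D4:**
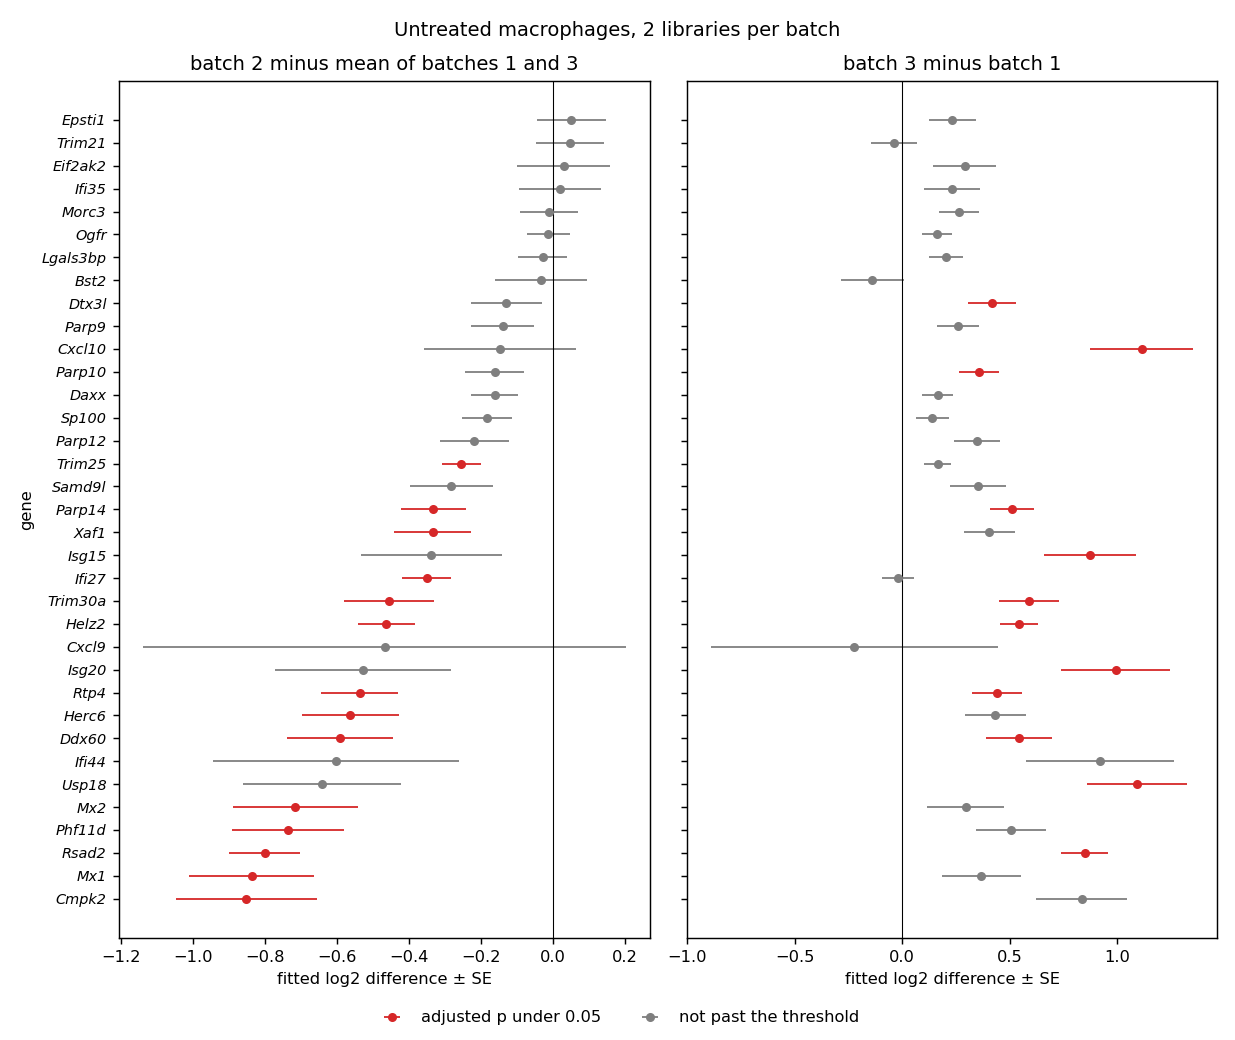
Fitted log2 difference ± SE (horizontal axis) of the 35 genes (rows) among untreated libraries, for batch 2 minus the mean of batches 1 and 3 and for batch 3 minus batch 1; red points have an adjusted p under 0.05. Red points number 14 on the left, all below 0, and 12 on the right, all above 0.

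The pathway upstream was read from lists of ligands, receptors and factors. Among 10 interferon genes listed, 0 passed the filter: Ifnb1 had 50 counts in all, Ifng 1, and Ifna1, Ifna2, Ifna4, Ifna5, Ifne, Ifnk, Ifnl2 and Ifnl3 had 0. Ifnb1, the gene of interferon beta, had 0, 2, 2, 0, 0 and 0 counts in untreated replicates 1 to 6, 17, 6 and 0 in trap supernatant replicates 1 to 3, and 7, 5, 0, 10 and 1 in mast cell supernatant replicates 1 to 5. The batch 3 libraries thus held at most 2 counts each, and the highest count was in the trap library of batch 1. Among 7 receptor and kinase genes, 2 were called lower with mast cell supernatant (2.62% of all genes) and 0 higher (2.17%). The 2 were Ifnar1 (log2 -0.27 ± 0.05, edgeR adjusted p = 0.00433) and Ifngr2 (-0.26 ± 0.05, edgeR adjusted p = 0.00382). With trap supernatant their values were -0.19 ± 0.06 and -0.18 ± 0.05 and did not pass (edgeR adjusted p = 0.14 and 0.123). Of 9 STAT and IRF genes, Irf2, a factor that binds ISREs and mostly represses, was the 1 called. It was higher with both trap supernatant (0.42 ± 0.09, edgeR adjusted p = 0.0195) and mast cell supernatant (0.37 ± 0.08, edgeR adjusted p = 0.00906), where 0.919% and 2.17% of all genes were called higher. Each of these 4 calls was lost with no batch term, with libraries of a group and batch summed, without batch 2, and with replicates 1 to 3 alone (9 libraries) and the replicate number as a block. With that block the edgeR adjusted p was 0.203 for Ifnar1, 0.216 for Ifngr2, and 0.149 and 0.148 for Irf2 with trap and mast cell supernatant. Over all alternatives the adjusted p ran from 4.63e-05 to 0.203, from 1.27e-05 to 0.216, from 0.00102 to 0.450 and from 0.000297 to 0.179 in that order, and the direction did not change. Ifnar1 was not called without batch 1 either, nor Irf2 without batch 3, and for trap supernatant Irf2 was also lost with only the groups compared and without untreated replicate 2 or 5 or trap supernatant replicate 2 or 3. Of the 9, trap supernatant lay above mast cell supernatant by mean log2 CPM for 7, 8 and 5 in batches 1, 2 and 3. The ISGF3 genes Stat2 and Irf9, chosen after their values were seen, had trap minus mast cell supernatant differences of 0.90, 1.21 and 0.23 (Stat2) and 0.42, 0.59 and 0.19 (Irf9). The 4 genes of interferon feedback were mixed, with 3, 1 and 3 positive and medians of 0.07, -0.05 and 0.43. Socs1, an inhibitor of the receptor kinases, had 0.59, 0.90 and 0.68, Socs3 0.07, -0.07 and 0.93, and the phosphatase genes Ptpn2 and Ptpn6 0.07, -0.11 and 0.18 and -0.20, -0.03 and -0.01.

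Compared with like genes, 10 Ifit and Oas genes gave medians of 1.46, 0.63 and -0.39 for trap minus untreated, 0.40, -0.64 and -0.89 for mast cell supernatant minus untreated, and 1.36, 1.26 and 0.33 for trap minus mast cell supernatant in batches 1, 2 and 3. The signs were those of the 35 genes in each of the 9 settings. Both sets lie on the same libraries, and the difference between them was not tested. The 15 tested NF-kB inflammatory genes, such as Tnf and Cxcl1, followed another order: 2.14, 0.01 and -0.19 for trap minus untreated, 2.34, 0.66 and -0.78 for mast cell supernatant minus untreated, and -0.14, -0.58 and 0.77 for trap minus mast cell supernatant. In batches 1 and 2 these genes were thus lower with trap than with mast cell supernatant for 14 and 13 of 15, where the 35 genes were higher for 33 and 34. In batch 3 all 15 were higher with trap supernatant, and so were 27 of the 35. Of all 13061 genes tested, 6519, 6566 and 6719 were higher with trap supernatant in batches 1, 2 and 3. The mast cell marker sum was 83.6 CPM with trap and 81.8 and 108.5 CPM with mast cell supernatant in batch 1, 743 and 1381 in batch 2, and 1975 against 226 and 284 in batch 3. The treated libraries of batch 1 thus had lower sums than those of batches 2 and 3. Neutrophil markers summed to 142, 77.6 and 298 CPM with trap supernatant in batches 1, 2 and 3. The part of mast cell or neutrophil transcripts in the result was not tested.

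**Figure D5:**
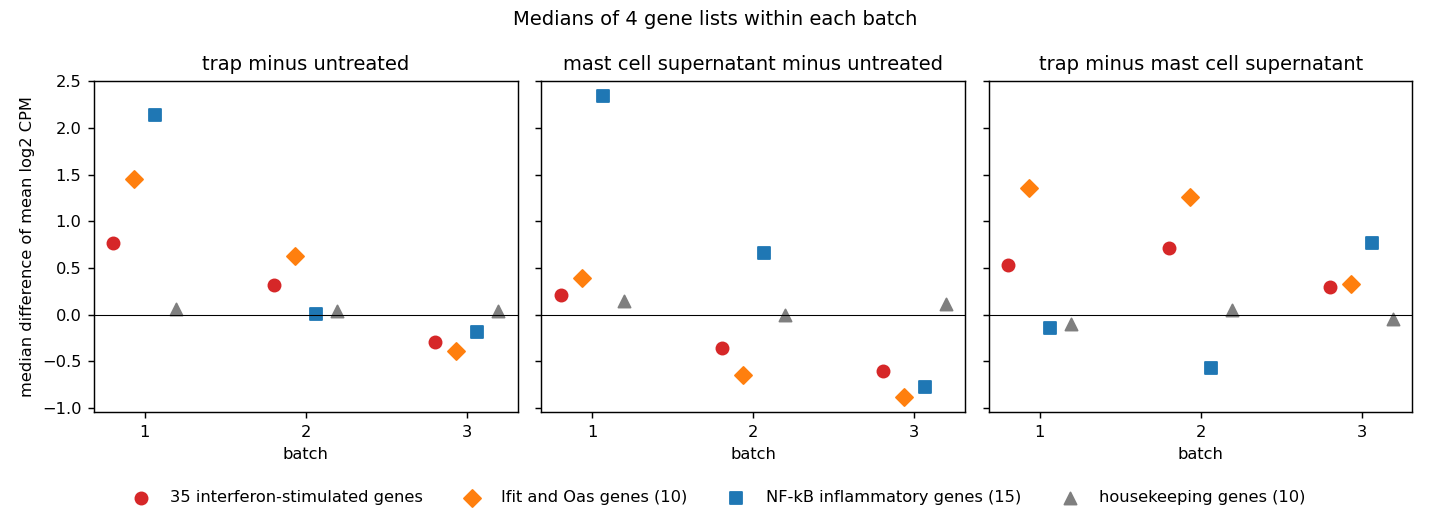
Median difference of mean log2 CPM within each batch (vertical axis) for the 35 interferon-stimulated genes, 10 Ifit and Oas genes, 15 NF-kB inflammatory genes and 10 housekeeping genes. Circles and diamonds share a sign in each of the 9 settings, squares stand apart from them in batches 1 and 2 of the last panel (-0.14 and -0.58 against 0.53 and 0.71), and triangles lie between -0.10 and 0.15. In batch 3 of the last panel, squares, circles and diamonds all lie above 0.

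The 9 genes with the ISRE core in a promoter and the 18 with a promoter and no such letters had overlapping values. Usp18, Mx1, Mx2, Rtp4, Ifi27, Parp9, Parp10 and Parp14 had no promoter here and are in neither group. Mx1 and Mx2 were among the genes with the widest differences between trap and mast cell supernatant, so the medians below leave them out. Medians of trap minus mast cell supernatant were 0.53, 0.68 and 0.32 with the letters and 0.46, 0.67 and 0.26 without in batches 1, 2 and 3. Ranges overlapped widely: in batch 1 they were -0.02 to 1.93 with the letters and -0.01 to 1.77 without. Among untreated libraries, batch 3 exceeded batch 1 by medians of 0.54 and 0.35. Isg15, with the most matches (3), differed by 0.95, 1.43 and 0.32 between trap and mast cell supernatant. Bst2, with 2 matches, differed by -0.02, 0.15 and -0.10, and Cxcl10, with 1 match, by 1.75, 1.44 and 1.70. These are single genes, and a relation between the number of matches and the differences was not tested.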

How the data were processed

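Stranded poly(A) libraries of macrophages were sequenced, 14 in all, per the labels. The deposited values are read counts for each gene, as whole numbers without normalisation, which the authors made with featureCounts 2.0.0 on GRCm38, per the submitters' processing notes. Columns were matched to samples by the group's abbreviation and the replicate number; the abbreviation for mast cell supernatant is not spelled out, and those columns were matched by being the remaining group of 5. No source used here names the aligner, the annotation release or the strand setting. Symbols and coordinates are those of GENCODE release 21 for 47224 of 47937 genes, and promoters those of RefSeq on GRCm38.p6. Total counts of 11729073 to 22720419 per library limit the precision of low genes. Intervals between libraries cover what these samples show, and reads carried no molecular identifiers.

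The count test was that of edgeR 4.0.16 in R 4.3.3 (filterByExpr, TMM, robust quasi-likelihood test, group and batch as terms over all 14 libraries, Benjamini-Hochberg over 13061 genes, false discovery rate 0.05). The 6 untreated libraries were fitted alone by batch (13045 genes). Differences within a batch compare means of log2 CPM (prior count 1). RPKM uses the exon length of GENCODE. DESeq2 1.42.0, limma 3.58.1 (voom), other scalings, no filter, no batch term, summed libraries, single groups, and each batch and library left out in turn were the alternatives. The scripts were tested on simulated data. In the treatment comparisons 3.89% to 5.46% of simulated calls were false. In the fits of untreated libraries it was 9.94% for batch 2 against batches 1 and 3 and 7.89% for batch 3 against batch 1. Those are above the rate of 0.05 that was set. These 2 fits found 55.2% and 40.3% of the simulated 1.5-fold changes. The simulation drew each library independently and gave a treatment the same effect in every batch. It therefore cannot show the rate of false calls where libraries of a batch are technical replicates or effects differ between batches.

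The genes and lists were chosen with earlier results of these data known. Values of every library are given for up to 2 genes per role with the highest mean CPM and for the 3 highest and 3 lowest pooled differences of trap supernatant from untreated. Promoters follow the number of ISRE core matches. Others named were chosen after their values were seen. A gene of the STAT and IRF list is not reported here by name.

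In each group, the label of batch 1, 2 or 3 goes with replicate 1, 2 or 3. With group means removed, libraries sharing a number had correlations of 0.293 to 0.718 (9 pairs) and others of -0.556 to 0.168 (18 pairs), so the numbers pair libraries and the replicate block is the batch. No libraries were taken as deposited more than once: chi-square per degree of freedom was 1.82 to 15.2 between libraries of a group and batch. Between libraries of a group from different batches it was 31.8 to 81.9. The fits of untreated libraries by batch rest on the smaller spread, that within batches.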

Additional observations from a re-analysis of the deposited data

Results flagged for a closer look

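Among the 5 libraries with mast cell supernatant, replicate 2 had the lowest Trim25 level, 238.7 CPM, and its gap to the next library was 0.801 of the group's range (Dixon's 95% critical value 0.71). The same library had the lowest Parp10 level, 25.36 CPM, with a gap of 0.731 of the range. It is the only library of its group in batch 2. In all 70 groups of libraries were tested over the 35 genes, of which 2 stood out, and chance marks about 1 in 20.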

How the results depend on the processing

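Counts over all genes between trap supernatant and untreated went from 224 to 409 with DESeq2 (1 of the 35 genes among them). They were 15 with no batch term, 36 with the replicate block (replicates 1 to 3 alone, 9 libraries, so that fewer libraries entered) and 37 with libraries of a group and batch summed. They were 116 without batch 1, 88 without batch 2 and 97 to 280 with 1 library left out. For mast cell supernatant against untreated, 625 became 62, 84 and 76 with no batch term, the block and summed libraries, 231 without batch 2 and 449 to 751 with 1 library left out. Between trap and mast cell supernatant, 0 became 10 with DESeq2 (4 of the 35 genes among them), 22 with only the groups compared, 1 without batch 3 and 0 to 3 with 1 library left out. The count for untreated batch 2 was 4362, or 5536 against batch 1 alone (added after the data were seen), and ran from 1989 to 6360 with 1 library left out. Batch 3 against batch 1 had 1397, or 2123 with no filter, 921 with DESeq2, 2766 with all 14 libraries and 332 to 3833 with 1 library left out.

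Of the 35 genes, 9 were called between trap and mast cell supernatant with only those groups fitted, a fit whose count over all genes is given above. Between trap supernatant and untreated, 1 to 2 were called without batch 3 or without untreated replicate 3. For mast cell supernatant against untreated the number was 7 without batch 1, 4 with DESeq2 and 0 without batch 2, without replicate 2 of that group, with no batch term or with the replicate block. Where no count over all genes stands above for a setting, the number of the 35 has no share beside it and nothing is read from it. Median differences of the 35 genes with the block and 9 libraries were 0.21, -0.28 and 0.44 for trap against untreated, mast cell supernatant against untreated and trap against mast cell supernatant. With all 14 libraries in the batch comparison, batch 3 against batch 1 turned negative for Rsad2 (-1.06), Cxcl10 (-0.81), Isg15 (-0.38), Usp18 (-0.21), Helz2 (-0.20), Rtp4 (-0.18), Parp14 (-0.12), Dtx3l (-0.067) and Ddx60 (-0.058), and 2 of the 35 genes were called; that fit holds the treated libraries too. Other scalings moved the median of all genes by at most 0.02. Prior counts of 0.25 and 5 kept the sign of each within-batch median. Depth limits Cxcl9 and Ifnb1, and each batch holds 1 trap library.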
